A study of Mus musculus with 92 samples.

Results

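Igfn1, the gene for immunoglobulin-like and fibronectin type III domain containing 1, differed about 81.9-fold between the lowest and the highest of 92 mouse quadriceps muscles. It is 1 of the 13441 genes in the deposited table and was chosen by its measured spread over these animals, so its distribution is given as a description without a test. The muscles came from DOz mice, outbred animals that differ from one another genetically. All animals had been fed standard chow for life and were about 18 to 20 weeks old, and the labels give no second group. RNA was sequenced after preparation with a kit for polyadenylated RNA. Each sample was treated as 1 animal, so the spread given here holds both differences between animals and technical differences.

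The Igfn1 protein is a large skeletal muscle protein built of immunoglobulin-like and fibronectin type III domains, the same kinds of module that make up titin and the myosin-binding proteins of the sarcomere. It is found at the Z-disc, where the thin filaments of neighbouring sarcomeres are anchored. It is known as a binding partner of Ky, the protein missing in kyphoscoliosis mice, and in the same protein network lies filamin C, an actin crosslinker of the Z-disc and the costamere. Little is settled about what Igfn1 does there.

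In the GENCODE M21 annotation of build GRCm38 (mm10), Igfn1 (ENSMUSG00000051985) lies on the minus strand of chromosome 1, from 135953578 to 136006342. The annotation gives it 3 transcripts. The longest, with 27 exons and 8989 bases, is protein coding, as is another with 21 exons and 3661 bases. The shortest, with 8 exons and 1770 bases, is of the nonsense-mediated decay type, and that is the type the deposited table lists beside the gene. No exon of another annotated gene overlaps those of Igfn1. Of the 9023 distinct runs of 31 bases in its transcripts, 0 occur in transcripts of other genes, so the annotation holds no near-identical copy at that length.

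The sequence around the start of Igfn1 is shown because its transcript level is the quantity that varied, and that of Ddx59 because Ddx59 was the gene within 5 Mb that passed the genome-wide test described further on. Both are RefSeq sequences of build GRCm38.p6, written 5′ to 3′ on the strand of the gene, from 250 bases before to 50 bases after the start. The Igfn1 window is chr1:136006293-136006592 on the minus strand and the Ddx59 window is chr1:136415021-136415320 on the plus strand. Capitals mark CAGCTG, an E-box form bound by myogenic factors such as Myod1.
Igfn1: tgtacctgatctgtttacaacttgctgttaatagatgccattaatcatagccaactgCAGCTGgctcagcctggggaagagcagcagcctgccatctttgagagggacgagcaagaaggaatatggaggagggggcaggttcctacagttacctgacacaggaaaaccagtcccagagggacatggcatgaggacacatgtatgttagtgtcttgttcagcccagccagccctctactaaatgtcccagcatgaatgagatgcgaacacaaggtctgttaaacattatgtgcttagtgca
Ddx59: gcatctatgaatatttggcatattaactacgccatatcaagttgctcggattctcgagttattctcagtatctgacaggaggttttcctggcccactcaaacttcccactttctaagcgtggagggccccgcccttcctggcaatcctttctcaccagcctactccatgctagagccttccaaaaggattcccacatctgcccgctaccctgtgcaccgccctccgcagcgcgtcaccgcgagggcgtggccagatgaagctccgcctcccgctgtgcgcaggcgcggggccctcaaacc
The letters CAGCTG, which read the same on both strands, occurred 1 time in the Igfn1 window (in the part before the start) and 0 times in the Ddx59 window. Of 32851 promoter windows of this length, 16.3% held CAGCTG. The wider E-box pattern CANNTG, which includes CAGCTG, occurred 3 times in the Igfn1 window and 2 times in the Ddx59 window, and 72.3% of all windows held it. TGTTCT, part of the element bound by the glucocorticoid receptor, was searched on both strands and was in neither window, against 19% of all windows. TATAAA (13.6% of all windows) and the MEF2 consensus (3.19%) were in neither window. A match of letters does not show that a factor binds there, and a missing match says only that the letters are not in this window.

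All values are on a log2 scale and were read as close to log2 CPM, that is counts scaled to a common library total. The linear values of a sample summed to between 898071 and 1140761, and the exact scaling is not known. Igfn1 stood at 6.13 ± 1.74 (SD, n = 92), with a lowest value of 2.82, a median of 6.42 and a highest value of 9.17. On the linear scale these correspond to about 7.05, 85.8 and 577 CPM. The 5 lowest animals lay between 2.82 and 2.89, and the 5 highest between 8.59 and 9.17. The mean lay below the median, and the 10th percentile (3.54) lay farther from the median than the 90th (8.35). The lowest value of any gene in the table was -4.73, so the lowest Igfn1 values did not lie at the bottom of the scale.

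The animals filled the range without a break. There were 14 animals below 4, 23 from 4 to 6, 40 from 6 to 8 and 15 at 8 or above. The largest step between neighbouring animals in the sorted values was 0.25, and 0 steps of at least 1 with 5 or more animals on each side were found. No gap of that size divided the animals. Such a search cannot find sets of animals whose values overlap. From the 10th to the 90th percentile the values ran from 3.54 to 8.35, a 28-fold difference. Per kilobase of merged exon length (8996 bases for Igfn1), its log2 level had a median of 3.25 and a lowest value of -0.35. On that per-length scale Igfn1 ranked between 445 and 10253 among 13255 genes with an annotated length, depending on the animal. These per-length figures hold only if the deposited values were not already scaled by transcript length.

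**Figure D1:**
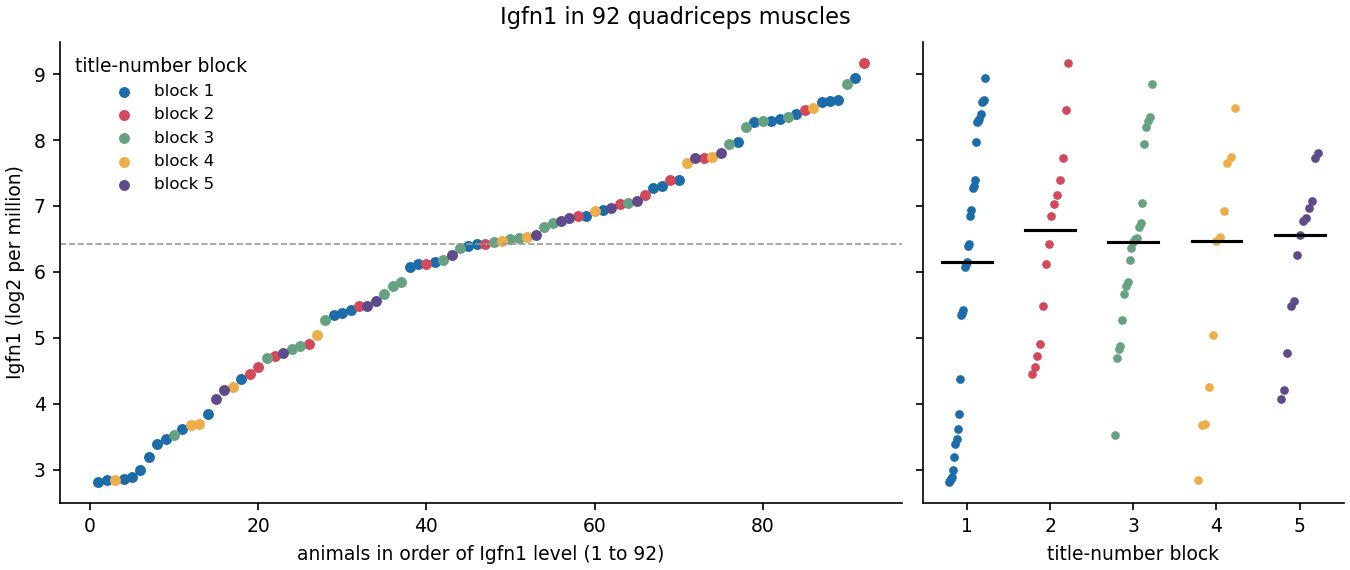
Igfn1 level in log2 CPM in each of 92 animals. On the left the animals stand in order of their level, with the median of 6.42 as a dashed line. On the right the same values are split by title-number block, a run of sample title numbers separated from the next by a gap of over 30, with block medians as bars. The values rise without a gap from 2.82 to 9.17, and the 5 blocks overlap over most of that range.

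The number that ends each title was used to sort the samples into 5 runs, called title-number blocks here and treated as a possible batch. The labels do not say what these numbers are. Block means were 5.92 ± 2.13 (SD, n = 33), 6.46 ± 1.49 (SD, n = 14), 6.41 ± 1.38 (SD, n = 21), 5.76 ± 1.93 (SD, n = 11) and 6.16 ± 1.24 (SD, n = 13). Block medians lay between 6.15 and 6.63, so the centres of the blocks differed by much less than the animals within each. The low tail was uneven. Blocks 1 and 4, with the largest SDs, had lowest values of 2.82 and 2.85. Blocks 2 and 5 held no animal below 4, with lowest values of 4.45 and 4.08. The lowest animal of a block ranged from 2.82 to 4.45 and the highest from 7.80 to 9.17, and the blocks overlapped over most of the range.

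Among genes of like abundance the spread of Igfn1 was unusual. Its SD of 1.74 was 8.24 times the SD of 0.21 that a trend over all genes gave at its mean level. The 100 genes closest to it in mean had SDs from 0.11 to 1.40, with a median of 0.19. On this measure of SD over trend, Igfn1 ranked 7 of the 11116 genes with a mean of at least 1. Above it were Rpl10-ps3, Myh13, Myh8, Hspa1a, Gapdhrt2 and Hspa1b, and just below it came Cwc22, Myh7 and Kcng4. These are the values by which Igfn1 was chosen, and they are given as a description.

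**Figure D2:**
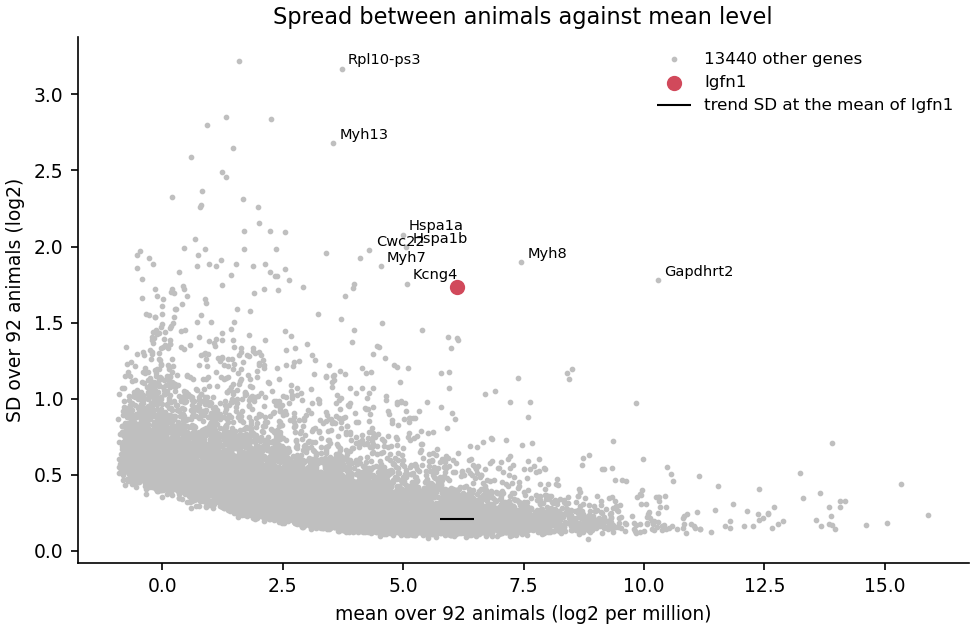
SD over 92 animals against mean level for 13441 genes, both on the log2 scale, 1 point per gene. Igfn1, in red at a mean of 6.13 and an SD of 1.74, lies far above the short black line that marks the trend SD of 0.21 at its mean. The other 9 of the 10 genes with the largest SD over trend are named.

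The other genes with wide variation had small correlations with Igfn1. Its Pearson's r over the 92 animals was -0.06 with Myh8, a perinatal myosin, -0.11 with Myh13, a myosin of extraocular muscle, and -0.18 with Myh7, the slow myosin. It was 0.008 with Hspa1a and 0.0149 with Hspa1b, the inducible heat shock proteins, and -0.12 with the potassium channel gene Kcng4. For Cwc22 it was -0.02. Of the 14 other genes among the first 15 by SD over trend, none passed the genome-wide test given next (limma adjusted p from 0.409 to 0.995). An unadjusted p under 0.05 was found for 2 of the 14, against 8.56% of all genes. These were Rps18-ps6 (r = 0.24, rho = 0.101) and ENSMUSG00000121445 (r = 0.27, rho = 0.296).

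The genome-wide test asked which genes varied along with Igfn1. For each of the 13440 other genes, limma fitted a slope on the standardised Igfn1 level, and slopes are given in log2 units for each SD of Igfn1 (1.74 log2). Igfn1 entered as a continuous measure and animals were never divided by it. At a Benjamini-Hochberg adjusted p under 0.05, 6 genes passed, or 0.0446% of those tested, 5 of them rising with Igfn1 (0.0372%) and 1 falling (0.00744%). At an unadjusted p under 0.05 there were 1151 genes, or 8.56%, 676 rising (5.03%) and 475 falling (3.53%). Those described here are Itgb1, Ivns1abp, Klhl30 and Ddx59, which rose, and Osbpl9, which fell. They were picked by that test. Their permutation p-values and their r within blocks come from the same animals, so they give no separate support. Those permutation p-values are not adjusted.

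Itgb1, the integrin beta 1 chain that links muscle fibres to the matrix around them, was the gene most like Igfn1. Its level ran from 7.40 through a median of 7.88 to 8.48. It rose by 0.09 ± 0.02 (slope, SE) per SD of Igfn1 (limma adjusted p = 0.012). The correlation was r = 0.486 (permutation p = 1e-05, the smallest possible) and rho = 0.47 (permutation p = 1e-05), r was 0.495 once the 2 animals with the most extreme Igfn1 levels relative to the median (the 2 farthest animals) were dropped, and it ran from 0.13 to 0.785 within the 5 blocks. The fall in Osbpl9, a member of the oxysterol-binding protein family of lipid carriers, was of similar size. Osbpl9 ran from 6.02 through a median of 6.55 to 7.07, its slope was -0.08 ± 0.02 (SE, limma adjusted p = 0.0293), and its correlation was r = -0.453 (permutation p = 2e-05), rho = -0.405 (permutation p = 1e-04), block r of -0.773 to -0.179 and a value of -0.424 once the 2 farthest animals were dropped.

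Klhl30, a kelch-family gene, lies on chromosome 1 at a distance of 44.7 Mb from Igfn1. It ran from 5.70 through 6.25 to 7.25 and rose by 0.13 ± 0.03 (slope, SE, limma adjusted p = 0.0341), with r = 0.43 (permutation p = 1e-05), rho = 0.424 (permutation p = 2e-05), block r of 0.157 to 0.501 and a value of 0.41 once the 2 farthest animals were dropped.

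Ivns1abp, another kelch-repeat gene, lies on the same chromosome, 15.3 Mb from Igfn1. Its level ran from 6.92 through 7.58 to 8.20 and rose by 0.13 ± 0.03 (slope, SE, limma adjusted p = 0.0213), with r = 0.459 (permutation p = 2e-05), rho = 0.43 (permutation p = 3e-05), block r of 0.198 to 0.573 and a value of 0.455 once the 2 farthest animals were dropped. Ddx59, a DEAD-box RNA helicase gene, lies 0.41 Mb from Igfn1. It ran from 3.03 through 3.73 to 4.78 and rose by 0.17 ± 0.04 (slope, SE, limma adjusted p = 0.0341), with r = 0.43 (permutation p = 6e-05), rho = 0.423 (permutation p = 7e-05), block r of 0.173 to 0.484 and a value of 0.42 once the 2 farthest animals were dropped. All 6 genes had the same sign in all 5 blocks. Per SD of Igfn1 each moved by far less than Igfn1 did. Igfn1 was chosen for its large spread, so that difference says little about these genes.

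**Figure D3:**
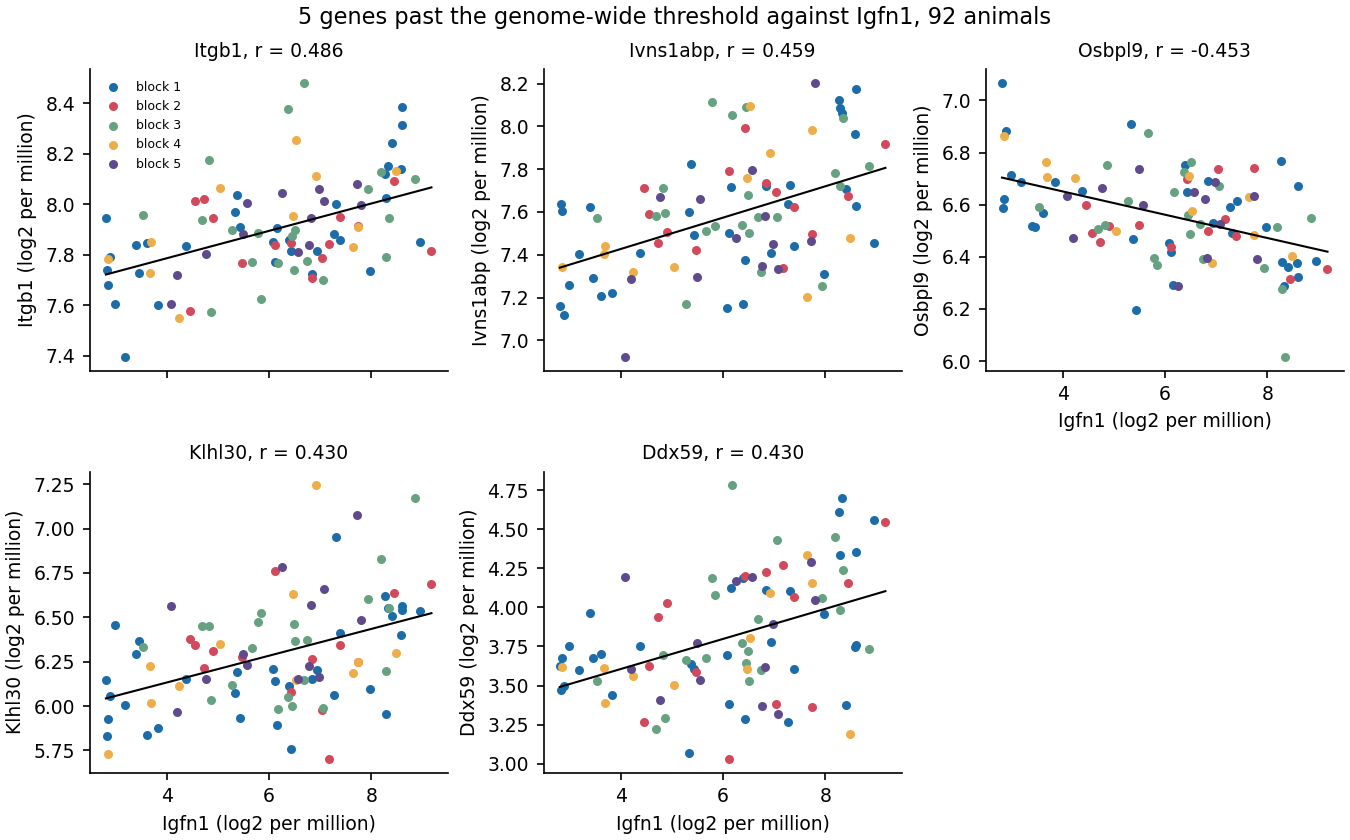
Level of 5 of the 6 genes past the genome-wide threshold (vertical axes) against the level of Igfn1 (horizontal axes) in 92 animals, all in log2 CPM. Points are animals coloured by title-number block and lines are least-squares fits. The points scatter widely around every line, with r from -0.453 for Osbpl9 to 0.486 for Itgb1.

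These calls were close to the threshold. With the block as covariate 1 gene passed, Itgb1, and 2 passed both without the 2 farthest animals (Itgb1 and Ivns1abp) and with 8 marker scores as covariates (Ddx59 and Osbpl9). None of the 6 passed under all 8 alternative fits, although each kept its sign in all 8.

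The gene next in order and just outside the threshold was Myod1, the myogenic transcription factor. It ran from 2.80 through 3.87 to 4.92, with a slope of 0.20 ± 0.05 (SE), r = 0.41 and a limma adjusted p of 0.0723, and Ddx59 was the last gene inside. Myod1 passed in 2 of the 8 alternative fits, with the first 3 principal components as covariates (slope 0.21, limma adjusted p = 0.0425) and on normal scores of the Igfn1 ranks (slope 0.21, limma adjusted p = 0.0323). Vcl, the gene for vinculin, and Sync, an intermediate filament gene of muscle, also fell outside and were chosen after their values were seen. They ranked 9 and 16 by unadjusted limma p. Genes ranked between Myod1 and Sync, such as Vsig10l, Pip4p2 and Map1a, are not described here. Vcl had r = 0.394 (limma adjusted p = 0.105) and block r of -0.141 to 0.679. Sync had r = 0.385 (limma adjusted p = 0.117) and block r of 0.13 to 0.805.

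Genes that lie near each other tend to be inherited together, so the chromosomal neighbours were described separately. Within 5 Mb of the start of Igfn1 the table held 73 other genes, of which 1 passed the genome-wide test, Ddx59, against 0.0446% of all genes. It passed in 6 of the 8 alternative fits but not without the 2 farthest animals (adjusted p = 0.0973) or with the block as a covariate (adjusted p = 0.0787, both limma). At an unadjusted p under 0.05 there were 10 of the 73 genes (13.7%), compared with 8.56% of all genes and 8.45% of the 12473 genes on other chromosomes. For 186 genes the annotation gave no position.

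Of the 73 genes, those with the largest correlations lay under 1 Mb from Igfn1 and on 1 side of it. Among the 20 genes within 1 Mb, 4 (20%) had an unadjusted p under 0.05, Tmem9, Cacna1s, Ddx59 and Zfp281, all from 0.00181 to 0.62 Mb beyond the start of Igfn1 in the direction of larger coordinates. These 4 were named after their values were seen. Tmem9, which encodes a membrane protein of endosomes and lysosomes, is the nearest gene of the table, and it is transcribed away from Igfn1 from a start 1.81 kb away. It ran from 0.45 through 1.75 to 2.50, with a slope of 0.13 ± 0.04 (SE), r = 0.349 (permutation p = 0.00069), rho = 0.391 (permutation p = 0.00012), block r of 0.187 to 0.694 and a value of 0.369 once the 2 farthest animals were dropped. Its limma adjusted p over all genes was 0.238, so it did not pass.

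Cacna1s, the voltage-sensing subunit of the calcium channel that couples excitation to contraction, starts 46.4 kb from Igfn1 and had the opposite sign. It ran from 9.53 through 10.08 to 10.84, with a slope of -0.08 ± 0.02 (SE), r = -0.349 (permutation p = 0.00073), rho = -0.31 (permutation p = 0.00302), block r of -0.6 to 0.0331 and a value of -0.312 once the 2 farthest animals were dropped (limma adjusted p = 0.233). Zfp281, a zinc-finger transcription factor gene, starts 0.62 Mb away. It ran from 3.14 through 3.74 to 4.45, with a slope of 0.08 ± 0.02 (SE), r = 0.353 (permutation p = 0.00062), rho = 0.363 (permutation p = 0.00052), block r of 0.0168 to 0.638 and a value of 0.377 once the 2 farthest animals were dropped (limma adjusted p = 0.233). Tmem9, Cacna1s and Zfp281 did not pass in any of the 8 alternative fits. All 4 genes had an unadjusted p under 0.05 in every one of these fits. They were named for such a p in the same animals, so that gives no separate support.

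The other side of Igfn1 held the troponin genes Tnnt2, of cardiac and developing muscle, and Tnni1, of slow fibres. Their correlations with Igfn1 were r = 0.0255 (permutation p = 0.814, rho = -0.0366) for Tnnt2, 170 kb away, and r = -0.0155 (permutation p = 0.883, rho = -0.0459) for Tnni1, 227 kb away. Tnni1 itself varied widely, from -1.18 to 5.81, with an SD close to that of Igfn1. Phlda3 (r = -0.0288, permutation p = 0.783) and Csrp1 (r = -0.0433, permutation p = 0.679) were the next genes on that side. Beyond Cacna1s, Kif21b had r = -0.143 (permutation p = 0.174) and Gm37759 r = 0.0215 (permutation p = 0.84). Gm37759 is annotated on the opposite strand over the end of Cacna1s, and reads of the pair may not be separable in these values.

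**Figure D4:**
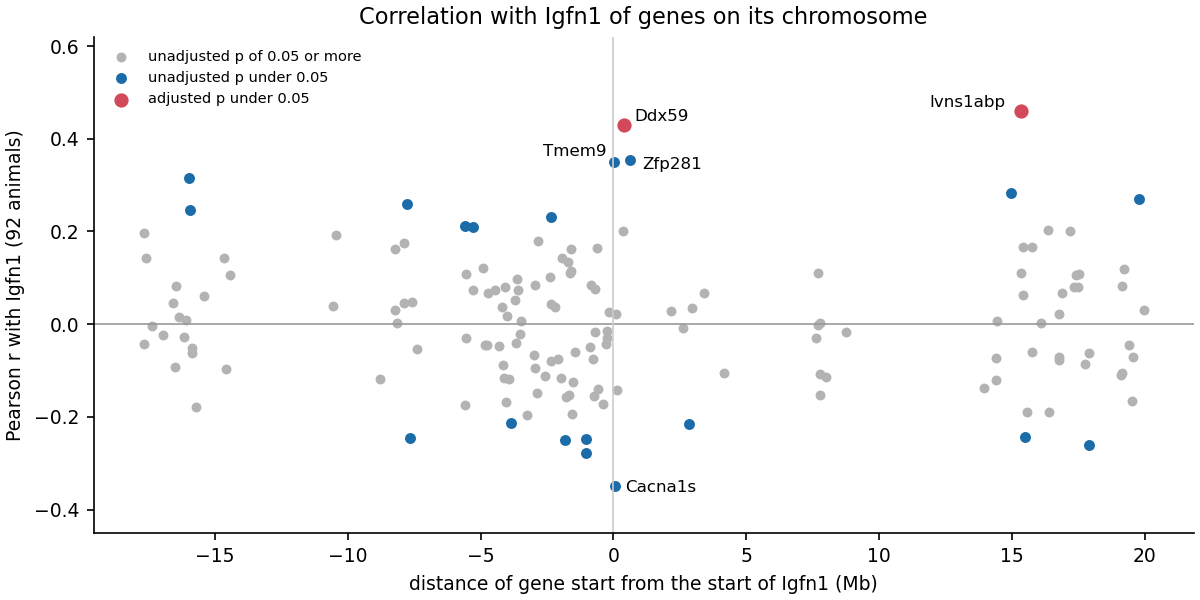
Pearson's r with Igfn1 over 92 animals (vertical axis) of genes on chromosome 1, against the distance of each gene's start from the start of Igfn1 in Mb, up to 20 Mb on either side. Red points passed the genome-wide threshold, blue points had an unadjusted p under 0.05 and grey points neither. Tmem9, Ddx59 and Zfp281 (r from 0.349 to 0.43) and Cacna1s (r = -0.349) stand close to Igfn1, and Ivns1abp (r = 0.459) stands 15.3 Mb away.

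With distance the share of genes at an unadjusted p under 0.05 was 20% of 20 genes under 1 Mb, 21.4% of 14 genes at 1 to 2 Mb, 7.69% of 39 genes at 2 to 5 Mb, 16.7% of 24 genes at 5 to 10 Mb, 11.9% of 59 genes at 10 to 20 Mb and 8.96% of 625 genes farther away on the chromosome. The 3 such genes at 1 to 2 Mb all had negative correlations, among them Mybph (r = -0.249), which encodes a myosin-binding protein and is on the list of related domain proteins described next. The shares did not fall evenly with distance, the near bins rest on few genes, and neighbouring genes are not independent of each other. Over chromosome 1 as a whole, 3 of 781 genes passed (Ivns1abp, Klhl30 and Ddx59), against 0.0446% of all genes. An unadjusted p under 0.05 was reached by 9.86%, against 8.56% of all genes. On the other autosomes and X that share ran from 4.92% on chromosome 17 to 12.9% on X.

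The genes of proteins known to bind Igfn1 or to lie in its network showed no relation that passed a test. Of the 6, none passed the genome-wide limma test and 0 had an unadjusted p under 0.05, against 8.56% of all genes. Ky, at 8.04 ± 0.36 (SD, n = 92) with a range of 7.04 to 8.82, had r = -0.0637 (permutation p = 0.544, rho = -0.0769). Flnc, the filamin C gene, at 9.34 ± 0.35 (SD, n = 92), had r = 0.16 (permutation p = 0.127, rho = 0.124). The translation elongation factor genes Eef1a1 and Eef1a2 had r = -0.0202 (permutation p = 0.85) and r = 0.0561 (permutation p = 0.594), Mybpc1, a slow-type myosin-binding protein, had r = -0.132 (permutation p = 0.209), and Cobl, an actin nucleator, had r = -0.0202 (permutation p = 0.849). The smallest adjusted p over these 6 relations was 0.628 (permutation test). The SDs of these genes, between 0.14 and 0.36, were below that of Igfn1, which was chosen for its spread. Over all genes tested the median SD was 0.32.

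Relatives of Igfn1 by domain had smaller SDs than Igfn1, as most genes did, since Igfn1 was chosen for its spread. Over all genes tested the median SD was 0.32, and differences in abundance were not allowed for. The 20 muscle genes of this list, which include titin, had SDs from 0.16 to 1.05 with a median of 0.22, the highest being that of Mybph, against 1.74 for Igfn1. Their median r was -0.01, with 10 positive and 10 negative, beside a median of 0.00366 over all genes, and 0 passed the genome-wide limma test. An unadjusted p under 0.05 was found for 2 of 20 (10%), a share near the 8.56% of all genes. These were Mybph (r = -0.249) and Nexn, the gene for the actin-binding protein nexilin (r = 0.252). Ttn itself had an SD of 0.17 and r = -0.0646.

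Of 32 genes of the Z-disc and of mechanical stress, 0 passed the limma test and 4 (12.5%) reached an unadjusted p under 0.05, against 8.56% of all genes in either direction and 5.03% rising. All 4 were positive: Ankrd1, a stretch-responsive ankyrin-repeat gene (r = 0.269), the small heat shock protein genes Hspb8 (r = 0.245) and Cryab (r = 0.234), and Smpx (r = 0.234). Their limma adjusted p-values lay between 0.409 and 0.502. In the developmental and denervation list of 14 genes, 0 passed the limma test and 3 (21.4%) reached an unadjusted p under 0.05, again all positive, beside the same 5.03% of all genes in that direction. These were Myod1 (r = 0.41), Musk, the receptor that organises the neuromuscular junction (r = 0.324), and Runx1, a transcription factor induced on denervation (r = 0.263). The embryonic and perinatal myosins Myh3 (r = 0.0538) and Myh8 (r = -0.0612) of the same list did not reach that p. Nor did Chrna1 (r = 0.0346), Chrnd (r = -0.0365), Gadd45a (r = -0.0902), Myog (r = 0.134) or Ncam1 (r = 0.129). Over the 14 genes the median r was 0.07, with 9 positive and 5 negative. The score of the list, the mean of its standardised genes, had r = 0.188 (permutation p = 0.0751, adjusted p = 0.466). The list as a whole thus showed no relation with Igfn1 that passed.

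The sampled muscle matched its label in that Myh4, the fast myosin of type IIB fibres, was at 15.90 ± 0.24 (SD, n = 92), and Myh4 had r = 0.0106 with Igfn1. All 10 slow fibre genes had a negative r, from -0.182 to -0.0155 with a median of -0.11, but 0 had an unadjusted p under 0.05. In the fast oxidative list 1 of 6 genes did, Myh2 (r = -0.204), the myosin of type IIA fibres, and in the fast glycolytic list 0 of 9. The share over all genes was 8.56%, and 3.53% for falling genes, so 1 gene in so short a list is little to read. Of the 14 oxidative phosphorylation genes, 12 had a negative r, with a median of -0.09 and 0 at an unadjusted p under 0.05. Over all genes tested, 6552 of 13440 had a negative r. Genes of a list can vary together, so counts of signs are not counts of independent genes. None of these lists held a gene that passed the genome-wide limma test. The slow fibre score had r = -0.118 (permutation p = 0.259), rho = -0.173 (permutation p = 0.0973) and, once the 2 farthest animals were dropped, r = -0.221 (permutation p = 0.0358, adjusted p = 0.17 over 19 scores), with the same sign in all 5 blocks. The fast oxidative score had r = -0.141 (permutation p = 0.183), rho = -0.217 (permutation p = 0.038) and, with those animals dropped, r = -0.232 (permutation p = 0.028, adjusted p = 0.17 over 19 scores), with the same sign in 3 of the 5 blocks. Neither passed after adjustment.

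Several lists of markers of other cell types had mostly negative correlations with Igfn1, and no gene of these lists passed the limma test: all 10 adipocyte genes, all 8 fibroblast genes, 6 of 7 Schwann cell genes, 6 of 8 endothelial genes and 4 of 6 blood genes had a negative r, beside 6552 of 13440 genes tested. Of the 8 macrophage genes 4 were negative, and of the 7 satellite cell genes 2. In such bulk samples fewer cells of a type and less RNA per cell cannot be told apart. Of 7 Schwann cell genes, 5 (71.4%) had an unadjusted p under 0.05, all negative, compared with 3.53% of all genes in that direction. Among them Mbp, Prx and Pmp22, which encode proteins of peripheral myelin, had r = -0.324, -0.287 and -0.246, and Sox10, the transcription factor that defines Schwann cells, had r = -0.267, with limma adjusted p-values from 0.259 to 0.461. S100b (r = -0.0732) lay outside that range. The Schwann score, the mean of the standardised genes, had r = -0.275 (permutation p = 0.0076, adjusted p = 0.144 over 19 scores), rho = -0.222 (permutation p = 0.0331) and -0.292 once the 2 farthest animals were dropped. Its sign was the same in 2 of the 5 blocks, where r ran from -0.525 to 0.456.

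All 10 adipocyte genes had a negative r, with a median of -0.161, and 3 of them (30%) had an unadjusted p under 0.05, against 3.53% of all genes in that direction: Cidec, a lipid droplet protein gene (r = -0.258), Adipoq, the gene for adiponectin (r = -0.248), and Lep, the gene for leptin (r = -0.223). The adipocyte score had r = -0.224 (permutation p = 0.0322, adjusted p = 0.306 over 19 scores), rho = -0.292 (permutation p = 0.00497), block r of -0.445 to 0.171 and a value of -0.259 once the 2 farthest animals were dropped. Macrophage, endothelial, blood and satellite cell lists had 0 genes at an unadjusted p under 0.05, and the fibroblast list, with r from -0.221 to -0.0276 and a median of -0.08, had 1 of 8, Dcn (r = -0.221). Of the 19 scores, 0 passed the permutation test after adjustment, and with all 92 animals 2 had an unadjusted p under 0.05 by r. Whether these cell types had a part in the relations of Igfn1 with single genes was not tested beyond the fit with the marker scores. Its 8 scores were adipocyte, macrophage, endothelial, fibroblast, Schwann, blood, slow fibre and fast oxidative fibre, without satellite cell. Cell types and fibre types were thus adjusted for at once. In that fit the slopes of Ddx59 (0.20) and Osbpl9 (-0.08) stayed past the threshold and that of Itgb1 (0.07, limma adjusted p = 0.4) did not.

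**Figure D5:**
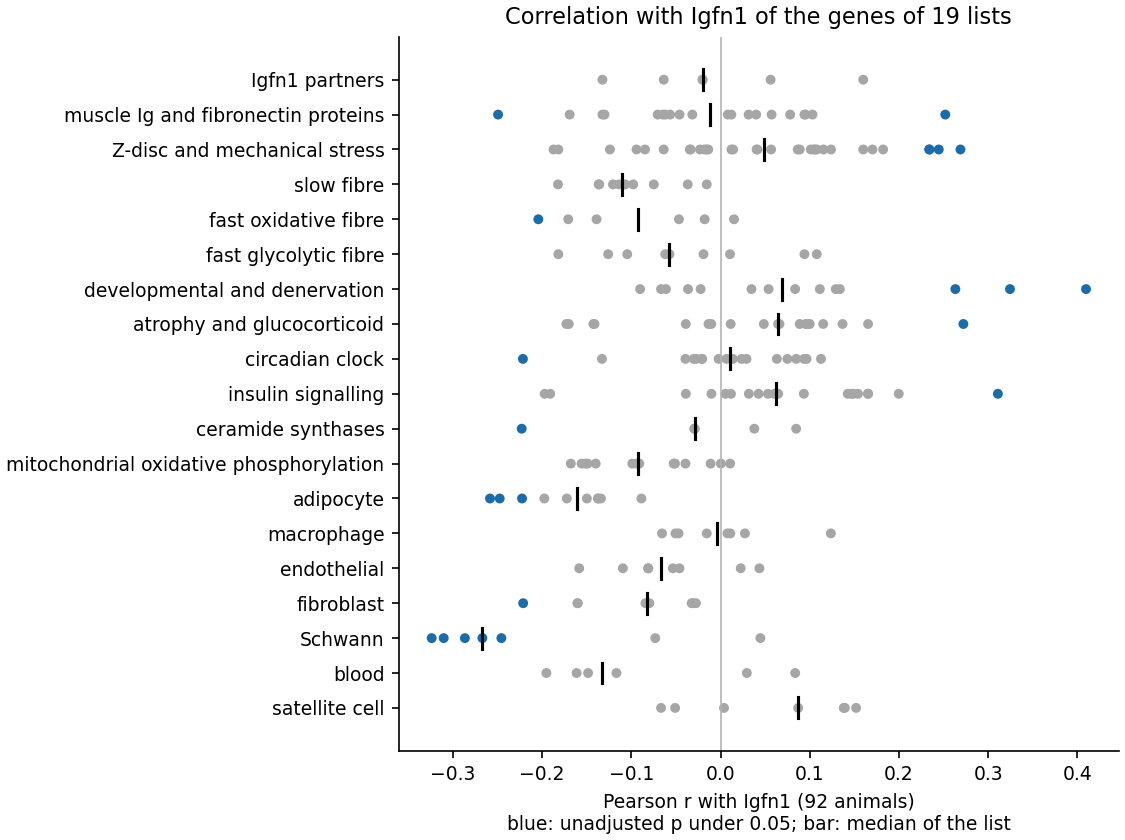
Pearson's r with Igfn1 over 92 animals (horizontal axis) for each gene of 19 lists (rows). Blue points had an unadjusted p under 0.05, grey points did not, and bars mark list medians. The Schwann list has 5 of 7 genes in blue on the negative side, and all genes of the slow fibre (10), adipocyte (10) and fibroblast (8) lists are negative.

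Genes that follow hormones, feeding or time of day were also set against Igfn1. In the atrophy and glucocorticoid list, 1 of 19 genes had an unadjusted p under 0.05, the ubiquitin ligase gene Fbxo30 (r = 0.272). In the circadian list 1 of 18 did, and the median r was 0.01. In the insulin signalling list 16 of 20 genes had a positive r, beside 6888 of 13440 genes tested, and the list median was 0.06. In that list 1 gene had an unadjusted p under 0.05, Rab10 (r = 0.311), a small GTPase in GLUT4 traffic. These shares (5.26%, 5.56% and 5%) were below the 8.56% of all genes, and none of these genes passed the genome-wide limma test.

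The series concerns muscle ceramides and insulin resistance, so Igfn1 was compared with the ceramide synthases, which join a fatty acid of a given length to the sphingoid base. Cers2, the synthase for very long chains, ran from 3.84 through 4.34 to 4.72 and had r = -0.223 with Igfn1 (permutation p = 0.0336, adjusted p = 0.168 over 5 relations), rho = -0.217 (permutation p = 0.0385), block r of -0.456 to 0.161 and a value of -0.254 once the 2 farthest animals were dropped. Cers1, which makes the C18 form and shares annotated exons with Gdf1, had r = 0.0848 (permutation p = 0.423). The values were -0.0296 for Cers4 (permutation p = 0.78), -0.0288 for Cers5 (permutation p = 0.785) and 0.0378 for Cers6 (permutation p = 0.72). None of the 5 passed after adjustment, and 1 had an unadjusted p under 0.05, beside 8.56% of all genes in the limma test.

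General properties of the libraries were compared with Igfn1 in 8 relations. Against the sample median, the summed linear values, the share of the 10 most abundant genes and the share of mitochondrial transcripts, r lay between 0.012 and 0.0362. Against the first 3 principal components of the other genes it was -0.0307, -0.0831 and 0.223, and against the title number 0.0398. The third component had a permutation p of 0.032 (adjusted p = 0.256 over 8 relations), rho = 0.196 (permutation p = 0.0608), and none of the 8 passed after adjustment. Its sign was the same in 3 of the 5 blocks.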

How the data were processed

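RNA from 92 quadriceps muscles was sequenced. Per the submitters' processing notes, bcl2fastq, MultiQC, kallisto 0.50.1, edgeR and the build mm10 were named, without their roles. The deposited table holds log2 values made by the authors. Raising 2 to each value and summing gave 898071 to 1140761 per sample, so they were taken as close to log2 CPM. Such a sum does not tell whether the values were also scaled by transcript length. Each sample stands for 1 animal, and where the labels do not say so p-values measure only the spread between samples. The tests had allowed for counts; limma was used because the unit is log2. Read depth is unknown. After 15 repeated lines were removed, 13441 of 13456 lines remained, and 0 value columns had no sample.

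Slopes were fitted with limma 3.58.1 (R 4.3.3), empirical Bayes moderation with a trend on the mean, and p-values adjusted by Benjamini-Hochberg across the 13440 other genes, and the code was tested on simulated data. Correlations had two-sided permutation tests of 100000 resamples (numpy 2.4.6). The spread trend was a lowess fit of log2 SD on the mean with a span of 0.5 (statsmodels 0.14.6). Distances are between gene starts in GENCODE M21; 13255 genes matched. Alternatives covered animals, block, components, marker scores, scale, filter, variance model, windows and ranks.

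The gene and the 19 lists were chosen with earlier results of these data known. Named were genes past the threshold with the highest and lowest r (at most 12 each), list members that passed, partners, synthases and the 4 nearest genes on each side; others are marked as chosen after their values were seen or stand for a count, as members with an unadjusted p under 0.05. Some genes that these rules name are not reported here.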

Additional observations from a re-analysis of the deposited data

How the results depend on the processing

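Read depth is unknown, so precision rests on the spread between 92 animals. The number of genes associated with Igfn1 was 6, and it dropped to 2 once the 2 farthest animals were left out, 1 with block as covariate and 2 with marker scores as covariates; it was 5 with the first 3 principal components as covariates, 8 on normal scores and 6 on log2(value + 1), with a mean of at least 1 and without the limma trend. The count of neighbours within 5 Mb was 1, and it was 0 without the 2 farthest animals and 0 with the block as a covariate. The count of 4 genes within 1 Mb at an unadjusted p under 0.05 lay between 4 and 6 under the 8 fits, a check added after the neighbours had been seen. The excess spread of Igfn1 over the trend was 3.04 ± 0.09 (log2, jackknife SE) and was 3.29 with the median absolute deviation in place of the SD. The cause of these shifts was not tested. No relation with a list score, library measure, synthase or partner passed under any alternative, and no slope that was followed changed sign. No paired analysis was possible because the labels give 1 group.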
